A study of Daphnia magna with 20 samples.

Results

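The set described here holds the transcript targets of the water flea Daphnia magna whose level in animals kept with dissolved lithium and cobalt lay below the level in every other group of the study. A target was kept when its median CPM (the estimated count scaled to the library sum), with 0.5 added, was, in control and at each of 2 doses of lithium cobalt oxide (LCO), at least 2 times its ion value, and when the control value was at least 2. The rule kept 115 of 26646 targets, or of 12634 that reached the control minimum, so the limit of 200 did not apply. The working name of the set was targets lowered by dissolved ions only. The tests below called 41 of the 115 (35.7%) lower at the higher LCO dose as well, against 16.7% of all tested targets. The word only is therefore not used, and the targets are called the members of the ion-lowered set.

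RNA was sequenced from whole wild type animals that were 5 days old when a 48 h exposure began. The 4 groups were moderately hard water alone (control), a lower (1 mg/L) and a higher (10 mg/L) LCO dose, and water with 66 µg/L lithium as LiCl and 15 µg/L cobalt as CoCl2, the amounts that the higher LCO dose gives off in that time. All groups were fed alfalfa suspension. Each group had 5 libraries, each from 10 pooled animals, and the labels do not say whether pools were kept in separate vessels, so p-values measure the spread between pools. Replicate 1 at 10 mg/L is titled as high dose but its treatment tag reads untreated, and it was grouped by its title. In whole animals, fewer cells of a type and less RNA per cell cannot be told apart.

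Daphnia magna is a small crustacean that reproduces mostly by cloning, moults throughout its life, and takes up dissolved metals across its gills and gut as well as with food. LCO is a layered oxide used as battery cathode material, and in water it gives off lithium faster than cobalt. Lithium is known to inhibit the kinase GSK-3, and cobalt to stabilise hypoxia-inducible factor and so to mimic low oxygen in animal cells. Gene names do not stand beside the identifiers in the deposited tables, and 0 of the 26646 identifiers matched the gene table used here, so members are given by identifier and their functions, genome positions and sequences are not given. For the same reason the labelled tissue was not checked against marker genes.

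Estimated counts per library ran from 20744445 to 44181066, with the lowest group mean, 24805082, in the ions, where the other groups lay between 30565909 and 34920639. All 115 members had enough counts to be tested. Their lengths (median 1925 bases) were close to those of all 16163 tested targets (median 1866 bases). Per length they were more abundant, with a median control level of 24.9 TPM (a level scaled for length and library) against 9.82 TPM over the tested targets. The control minimum of the rule favours abundant targets, and over the 12634 targets at that minimum the median was 15.8 TPM. The members ranged from 0.623 to 3073 TPM in control. A fractional count, which arises where reads are divided between similar targets, occurred in 20 members (17.4%) and in 24.2% of the tested targets.

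The values that chose the members are given as a description. Relative to the ions, the median member stood 3.41 times higher in control, 2.82 times higher under the lower LCO dose and 2.27 times higher under the higher dose. The LCO 10 mg/L level set the smallest of these ratios for 84 members, control for 22 and LCO 1 mg/L for 9. The smallest ratio was under 2.2 for 51 of the 115, at least 3 for 10 and at least 4 for 2, while 139 targets just outside had a smallest ratio from 1.8 up to the limit. The nearest targets inside had smallest ratios of 2.003 and 2, and the nearest outside 1.995 and 1.992.

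Across all targets, edgeR's quasi-likelihood test (p-values adjusted by Benjamini and Hochberg) called 110 members lower with ions than in control, 105 lower than at 1 mg/L and 94 lower than at 10 mg/L. Over all tested targets it called 24.7%, 20.1% and 11.3% lower in these comparisons. The ion values did not overlap those of the other group, with ions lower, for 79 members against control, 69 against 1 mg/L and 41 against 10 mg/L, beside 12.1%, 9.86% and 6.04% of all tested targets. In the other direction there were 0 members in each, beside 12.2%, 10.1% and 4.97%. The rule used the same contrasts, so nothing is read from these counts. No member was called higher with ions in any of the 3, by edgeR, DESeq2 or limma, and none was higher at an unadjusted p under 0.05 in edgeR (0 in each comparison). KZS18640 and KZS16709, named because they were the 2 members called lower in no ion comparison, varied widely between ion libraries. KZS18640 ran from 0.472 CPM in ion replicate 4 to 15 in ion replicate 3, and KZS16709 from 0.868 to 10.7 CPM in the same libraries. KZS17998, also named after its values were seen, had a higher mean with ions than in control although its median was lower. Its ion libraries held 0.482, 1.1, 1.54, 38.8 and 4.14 CPM in replicates 1, 3, 4, 5 and 6, and its control libraries 0.393 to 9.76 CPM.

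Ion replicate 5 stood apart from the other ion libraries in the members. The median member lay 0.72 below control in this library on the log2(CPM + 0.5) scale, while in ion replicates 1, 3, 4 and 6 it lay 1.72 to 2.2 below. The scale over all tested targets hardly moved, with medians 0.05 to 0.09 above control in the 5 ion libraries. Ion replicate 5 held the highest ion value for 102 of the 115 members, against 29.6% of all tested targets. The summed level of the members was 6169 CPM in this library and 1975 to 3176 CPM in the others. With all 5 ion libraries counted, 26 members lay below every one of the 15 other libraries, and with the other 4 ion libraries 92 did. Replicate 5 was set aside there after its values were seen, and the rule used these contrasts. The share over all tested targets was not counted, so nothing is read from these counts.

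**Figure D1:**
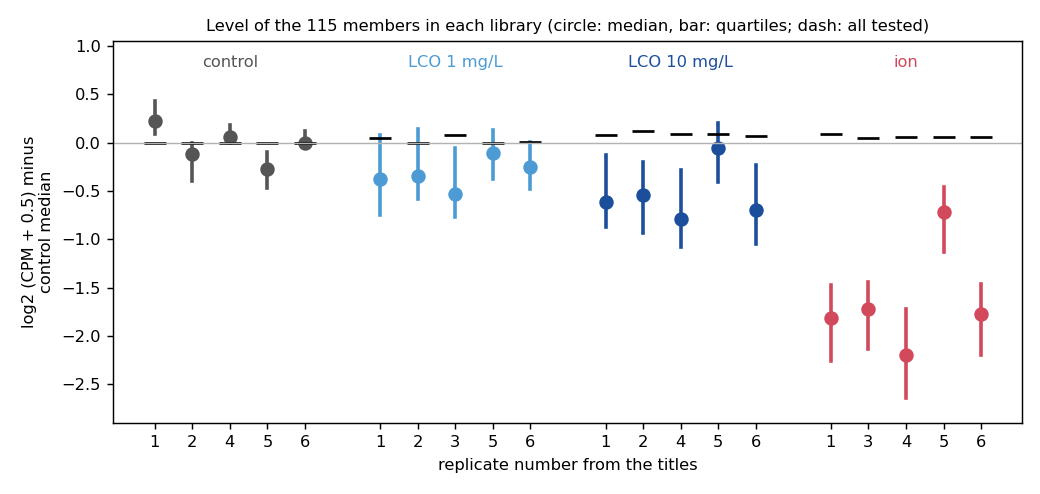
Median (circle) and quartiles (bar) of log2(CPM + 0.5) over the 115 members in each library, relative to each member's control median, with the median over all 16163 tested targets as a dash. Ion replicates 1, 3, 4 and 6 lie from -2.2 to -1.72 and ion replicate 5 at -0.72, beside LCO 10 mg/L libraries from -0.79 to -0.06.

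Replicate 5 of LCO 10 mg/L lay nearest to control among the libraries of its group. The median member lay 0.06 below control there and 0.54 to 0.79 below in the other LCO 10 mg/L libraries. It held the highest LCO 10 mg/L value for 73 members, against 25.9% of all tested targets. Within control, replicate 1 held the highest value for 76 members, against 20.0% of all tested targets, and replicate 5 the lowest for 66. As a description, the summed level of the members was 14647 ± 3454 CPM in control (SD, n = 5 in every group). It was 10240 ± 958 CPM under the lower LCO dose, 7508 ± 1465 CPM under the higher, and 3448 ± 1591 CPM in the ions. The libraries of neighbouring groups in that order overlapped. They ran from 10717 to 18967 CPM in control, then 9126 to 11347 (lower dose), 6115 to 9772 (higher dose) and 1975 to 6169 CPM (ions).

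To measure the ion level in a library that had no part in the choice, the rule was run again without each ion library in turn. The level of the left-out library was then read in the targets so chosen. Without ion replicate 4 the rule kept 66 targets, and 80.3% of them lay in replicate 4 at or under the limit, 0.5 times the lowest of the other 3 group medians. The share was 45.8% of 107 targets in replicate 1, 45.3% of 106 in replicate 3 and 51.8% of 114 in replicate 6. In ion replicate 5 it was 2.31%, or 4 of 173 targets. Over all targets at the control minimum the same shares were 6.7%, 2.44%, 1.63%, 1.48% and 0.127%. The other 3 group medians, which set the limit, did take part in the choice. Only the ion side was left out of it, so the gap between these shares is partly set by the choice and is given as a description. Membership moved with single ion libraries, with 66 targets kept without replicate 4 and 173 without replicate 5. Libraries of the other groups were left out in the same way, also as a description. A left-out LCO 10 mg/L library reached 2 times the ion median in 41.8% (replicate 4) to 92.6% (replicate 5) of the targets so chosen. The shares were 76.0% to 98.1% for control libraries and 85.2% to 95.6% for LCO 1 mg/L libraries. Over all targets at the control minimum they were 2.12% to 7.21% (LCO 10 mg/L), 7.17% to 13.2% (control) and 5.96% to 7.79% (LCO 1 mg/L). Without 1 LCO 10 mg/L library the rule kept 95 to 153 targets.

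**Figure D2:**
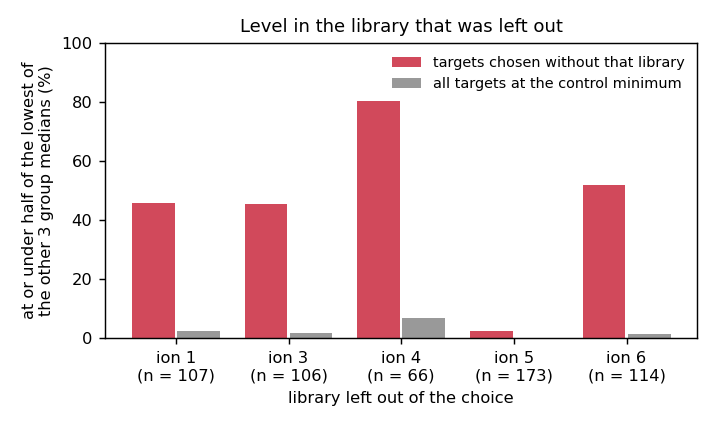
Share of targets that lay, in an ion library left out of the choice, at or under 0.5 times the lowest of the other 3 group medians, for targets chosen without that library (red, n under each bar) and for all targets at the control minimum (grey). The share runs from 45.3% to 80.3% in 4 libraries and is 2.31% in ion replicate 5. The other 3 group medians took part in the choice.

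Members differed strongly in how far and how evenly they were lowered. KZS18043 had the largest smallest ratio, 10.8. Its control libraries held 16.7, 4.13, 14, 2.83 and 11 CPM in replicates 1, 2, 4, 5 and 6. The LCO 1 mg/L libraries held 15, 32.4, 43.6, 71.2 and 51.6 CPM (replicates 1, 2, 3, 5 and 6). At 10 mg/L replicates 1, 2, 4, 5 and 6 held 23.3, 19, 22.4, 21.5 and 29.8 CPM, all above control. The ion libraries held 0.563, 0.32, 0.289, 3.69 and 1.81 CPM (replicates 1, 3, 4, 5 and 6), and only replicate 5 reached the range of control. Against control it was higher at 1 mg/L (log2 fold change 2.07, SE 0.59, edgeR adjusted p = 0.033) and did not pass at 10 mg/L (1.15, SE 0.57, adjusted p = 0.14).

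KZS12429, second by that ratio at 7.93, stood out for its graded order. Control libraries held 807, 349, 1216, 316 and 595 CPM in replicates 1, 2, 4, 5 and 6. At 1 mg/L replicates 1, 2, 3, 5 and 6 held 60.4, 71.6, 40.4, 211 and 202 CPM, all below control. At 10 mg/L they were 32.5, 10.5, 7.33, 37.1 and 14.5 CPM (replicates 1, 2, 4, 5 and 6), all below 1 mg/L. With ions they were 1.25, 5.66, 0.53, 32.6 and 1.39 CPM (replicates 1, 3, 4, 5 and 6), where replicate 5 reached the LCO 10 mg/L range. It fell at 10 mg/L against control (log2 fold change -5.10, SE 0.98, edgeR adjusted p = 0.00085). Its difference at 1 mg/L was -2.53 (SE 0.87, adjusted p = 0.073). Its counts were fractional in 19 of 20 libraries, which makes its level uncertain.

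The 2 members with the most counts in control were KZS06375 and KZS14841. KZS06375 held 2667, 807, 2024, 1283 and 2198 CPM in control replicates 1, 2, 4, 5 and 6. It held 864, 1143, 1158, 918 and 951 CPM in LCO 1 mg/L replicates 1, 2, 3, 5 and 6. At 10 mg/L it was at 450, 187, 231, 429 and 292 CPM in replicates 1, 2, 4, 5 and 6, below every control and 1 mg/L library. The ion libraries held 196, 112, 108, 223 and 106 CPM in replicates 1, 3, 4, 5 and 6, and those of replicates 1 and 5 lay within the LCO 10 mg/L range. Its counts were fractional in 18 of 20 libraries.

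KZS14841 kept more of its level with LCO. Its control libraries ran from 1090 to 1637 CPM, those at 1 mg/L from 805 to 1426 and those at 10 mg/L from 609 to 1205. With ions it held 214, 416, 132, 783 and 319 CPM in replicates 1, 3, 4, 5 and 6. All ion libraries lay below both control and 1 mg/L, and replicate 5 reached the 10 mg/L range. Neither LCO dose passed against control, with log2 fold changes of -0.35 (SE 0.33, edgeR adjusted p = 0.55) at 1 mg/L and -0.82 (SE 0.34, adjusted p = 0.073) at 10 mg/L.

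**Figure D3:**
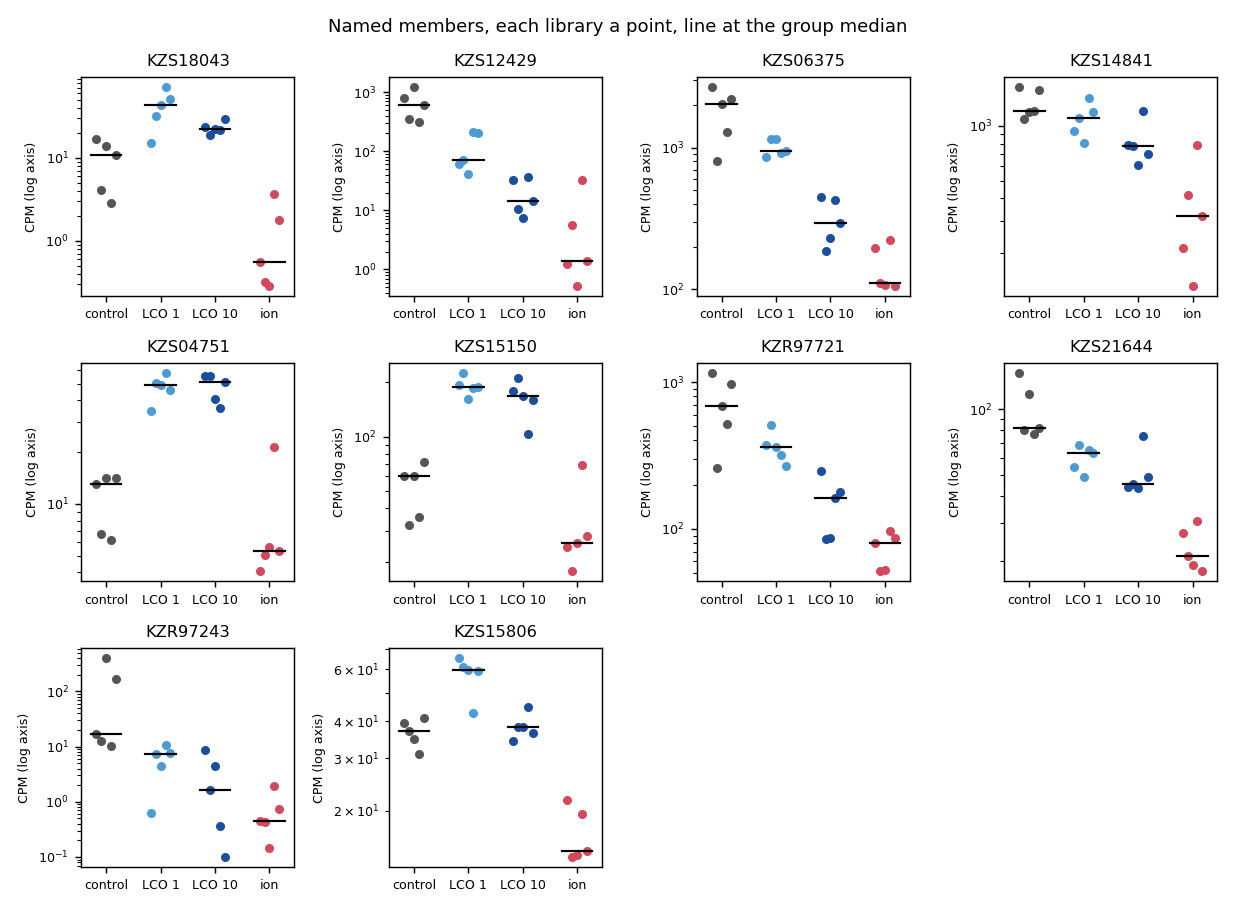
CPM (log axis) of the 10 members named by the rule in every library, by group, with a line at the group median. KZS12429, KZS06375 and KZR97721 step down from control through both LCO doses to the ions, while KZS04751 and KZS15150 stand highest in the LCO groups, with ion replicate 5 above the other ion libraries.

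The rule did not set control and the LCO doses against each other, but it bounds each of these groups from below by the ion level, so all of their libraries took part in the choice. Counts of members among these groups are therefore given as a description, beside the shares over all tested targets. Under the higher LCO dose 41 members were lower than in control and 6 higher, which is 35.7% and 5.22% of the set, where 16.7% and 13.7% of all tested targets were called lower and higher (edgeR's quasi-likelihood test, adjusted p under 0.05). The median log2 fold change was -0.60 over the members and 0.00 over all tested targets, and it was below 0 for 98 members (85.2%) against 49.5% of all. The values of the 2 groups did not overlap, with LCO lower, for 26 members (22.6%) against a background of 8.25%, and with LCO higher for 8 (6.96%) against 13.3%. The count of lower members was 36 without replicate 1 at 10 mg/L and 52 without its replicate 5. It was 58 without ion replicate 5, which is in the fit though not in this comparison, and 31 without control replicate 1. Of all tested targets, 15.57%, 17.09%, 18.34% and 14.94% were called lower in these fits. The cause of these shifts was not tested. The count was 65 with both replicates 5 left out, beside 18.67% of all, an alternative chosen after the data were seen.

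The lower members with the smallest p were KZS06375, described above (log2 fold change -2.60, SE 0.33, edgeR adjusted p = 2.9e-05), and KZR97721. KZR97721 is short, at 429 bases, and was the most abundant member per length in control at 3073 TPM. It held 1159, 262, 682, 515 and 970 CPM in control replicates 1, 2, 4, 5 and 6. The LCO 10 mg/L libraries held 250, 86, 86.6, 162 and 179 CPM in replicates 1, 2, 4, 5 and 6, all below control. The ion libraries ran from 51.4 to 96.7 CPM and overlapped only the lowest LCO 10 mg/L libraries. Its log2 fold change at 10 mg/L was -2.33 (SE 0.37, edgeR adjusted p = 0.00019).

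The higher members with the smallest p were KZS04751 and KZS15150. KZS04751 held 13.1, 6.71, 14.2, 6.14 and 14.2 CPM in control replicates 1, 2, 4, 5 and 6. At 10 mg/L it held 55.2, 55.3, 40.6, 36.2 and 51.3 CPM in replicates 1, 2, 4, 5 and 6, and at 1 mg/L 34.9 to 58.1 CPM, so both doses lay wholly above control. The ion libraries held 4.06, 5.04, 5.64, 21.4 and 5.33 CPM in replicates 1, 3, 4, 5 and 6, where replicate 5 lay above every control library and the others below the lowest. The log2 fold changes over control were 2.04 (SE 0.39, edgeR adjusted p = 0.00079) at 10 mg/L and 2.07 (SE 0.39, adjusted p = 0.0027) at 1 mg/L. KZS15150 had the same shape at a higher level, at 32.2 to 72.1 CPM in control, 161 to 227 at 1 mg/L and 103 to 211 at 10 mg/L. Its ion libraries held 24.4, 17.8, 25.7, 69.4 and 28 CPM in replicates 1, 3, 4, 5 and 6, where replicate 5 lay inside the control range and the others below it. Its log2 fold changes were 1.56 (SE 0.31, edgeR adjusted p = 0.0011) at 10 mg/L and 1.82 (SE 0.31, adjusted p = 0.0015) at 1 mg/L. Neither target was called lower with ions than in control in the same test. The log2 fold changes there were -0.45 (SE 0.38, adjusted p = 0.34) for KZS04751 and -0.71 (SE 0.30, adjusted p = 0.058) for KZS15150. KZS17998, also higher at 10 mg/L, was not called there either (1.06, SE 0.94, adjusted p = 0.36).

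**Figure D4:**
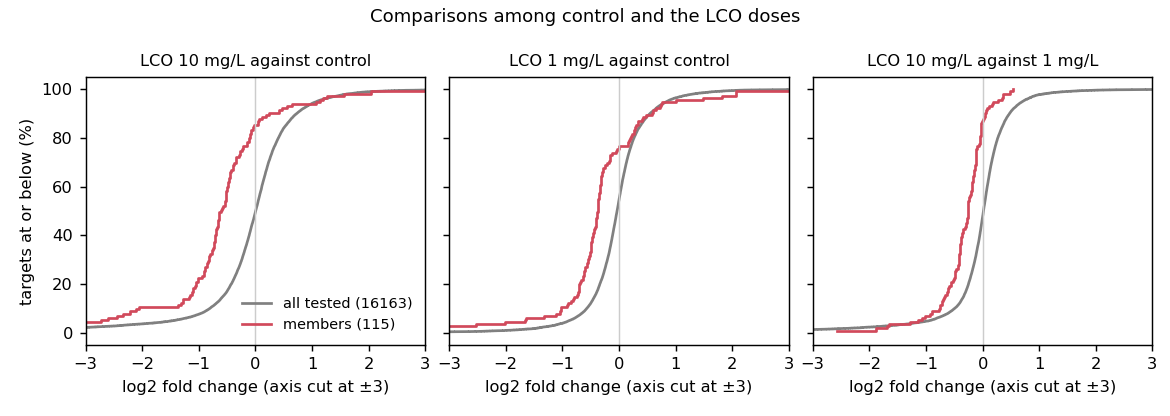
Cumulative share of targets by log2 fold change for the 115 members (red) and all 16163 tested targets (grey) in the comparisons among control and the LCO doses, with the axis limited to ±3. The median member lies at -0.60, -0.38 and -0.26, and the median of all tested targets at 0.00, -0.03 and 0.02.

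At 1 mg/L LCO 8 members were higher and 8 lower than in control, each 6.96% of the set, where 5.64% and 3.69% of all tested targets were called higher and lower (same edgeR test). The median log2 fold change was -0.38 over the members and -0.03 over all. Values did not overlap, with LCO lower, for 14 members (12.2%) against 2.81% of all, and with LCO higher for 8 (6.96%) against 6.29%. The 8 lower members were all among the 41 lowered at 10 mg/L, and 4 of the 8 higher ones were also higher at 10 mg/L. Opposite calls at the 2 doses occurred in 0 of 115 members, and both comparisons share the control libraries. The overlap of calls between the doses was not counted over all tested targets, so no trait of the members is read from it. The number of lower calls moved with single libraries. Leaving out control replicate 1 or 6 gave 3 or 4 of them, beside 3.02% and 1.97% of all tested targets. Leaving out replicate 2 or 6 at 1 mg/L gave 1 or 5, beside 2.15% and 2.91%. Leaving out ion replicate 5 gave 16, beside 5.12%. There were 0 without control replicate 4 or without LCO 1 mg/L replicate 1 or 3, beside 2.02%, 1.22% and 1.37% of all. In those fits 21, 18 and 19 members were lower at an unadjusted p under 0.05. The median log2 fold change over the members was -0.37, -0.35 and -0.33 there, near that of the main fit. The higher calls numbered 5 without control replicate 4, 5 or 6, beside 3.99%, 5.62% and 4.19%. DESeq2 called 16 members lower and limma 4, beside 6.4% and 1.88% of all.

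KZS21644 and KZR97243 were the lower members with the smallest p at this dose. KZS21644 held 148, 80, 118, 76.8 and 81.7 CPM in control replicates 1, 2, 4, 5 and 6 and 54.3, 68.4, 48.7, 64.8 and 63.2 CPM in LCO 1 mg/L replicates 1, 2, 3, 5 and 6. All 1 mg/L libraries lay below control, by a log2 fold change of -0.81 (SE 0.21, edgeR adjusted p = 0.020). The call was lost without control replicate 1 (-0.61) or 4 (-0.76) and without LCO 1 mg/L replicate 1 (-0.76) or 3 (-0.73), with adjusted p from 0.053 to 0.064. KZR97243 varied widely within control, at 16.9, 12.8, 401, 10.1 and 169 CPM in replicates 1, 2, 4, 5 and 6, and held 0.627 to 10.6 CPM at 1 mg/L, where the groups overlapped. Its log2 fold change was -4.35 (SE 1.15, edgeR adjusted p = 0.024), and -3.12 with an adjusted p of 0.091 without control replicate 4. The call was also lost without LCO 1 mg/L replicate 1, 2 or 3 (adjusted p 0.051 to 0.064). Its counts were fractional in 14 libraries.

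Between the doses 6 members were lower at 10 mg/L than at 1 mg/L (5.22% of the set) and 0 were higher, where 4.7% and 1.58% of all tested targets were called lower and higher in the same edgeR test. The share of lower members lay near the background. Values did not overlap, with the higher dose lower, for 7 members (6.09%) against 4.11% of all, and in the other direction for 0 against 4.58%. At an unadjusted p under 0.05 the same fit had 0 higher, and DESeq2 and limma also called 0 higher. With only the 2 groups compared in the fit, 2 members were higher at an unadjusted p under 0.05, and likewise 2 without the 3 libraries nearer to another group (control replicate 1, LCO 1 mg/L replicate 5 and ion replicate 5). The direction was lopsided all the same, as 100 of the 115 log2 fold changes (87%) were below 0 against 47.5% of all tested targets, with a median of -0.26 against 0.02. The medians of both doses entered the rule, and the set held 95 to 153 targets when 1 LCO 10 mg/L library was left out of the choice, so this direction is given as a description. Leaving out replicate 2 or 6 of either dose gave 3 lower members, beside 2.48% to 3.3% of all tested targets. The number was 9 without ion replicate 5 (5.87% of all), and 10 in both DESeq2 (7.37%) and limma (6.05%). With both replicates 5 (LCO 10 mg/L and ion) left out, chosen after the data were seen, it was 20 of 115, where 6.32% of all tested targets were lower.

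The smallest p between the doses belonged to KZS06375 (log2 fold change -1.69, SE 0.32, edgeR adjusted p = 0.0045) and KZS15806. KZS15806 held 65.4, 60.9, 59.6, 42.6 and 59.4 CPM in LCO 1 mg/L replicates 1, 2, 3, 5 and 6 and 34.3, 38.2, 38.5, 44.8 and 36.7 CPM in LCO 10 mg/L replicates 1, 2, 4, 5 and 6. The groups overlapped only through replicate 5 of each. The log2 fold change was -0.61 (SE 0.13, edgeR adjusted p = 0.0082). Its level at 10 mg/L was close to control (control 31 to 41.2 CPM, log2 fold change -0.03, adjusted p = 0.88), and at 1 mg/L it was above control by 0.58 (SE 0.13, adjusted p = 0.0076). With ions it ran from 14 to 21.7 CPM, below every library of the other groups.

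**Figure D5:**
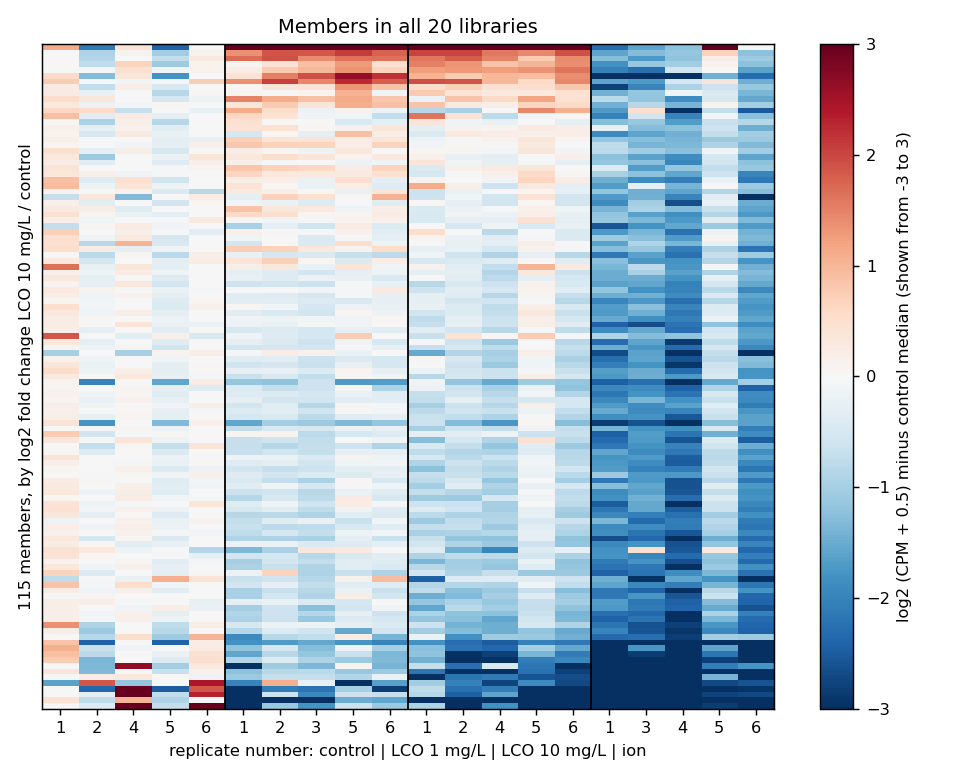
Level of each member in all 20 libraries as log2(CPM + 0.5) minus its control median, members ordered by the log2 fold change of LCO 10 mg/L over control. Colours are limited to -3 to 3. Most members are low in ion replicates 1, 3, 4 and 6 and less so in replicate 5, the top rows are raised at both LCO doses, and the bottom rows are low at both doses and with ions.

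Sorted by their call at 10 mg/L, the members formed 3 kinds. For the 68 members not called there, median log2 fold changes over control were -0.44 (higher dose), -0.31 (lower dose) and -1.48 (ions). The 41 lowered members had medians of -1.07, -0.68 and -2.03. The 6 raised members had medians of 1.42, 1.65 and -0.81. The first value of each kind is set by the sorting and the last by the rule. Per length, the 41 lowered members had a median control level of 74.7 TPM against 15.9 TPM for the 68 and 16.7 TPM for the 6. The control level took part in the sorting, so these levels are given as a description. At neither LCO dose was a call made for 64 members, and a missed threshold does not show that they did not differ. The share of all tested targets called at neither dose was not counted. At 10 mg/L 13.7% of all were called higher and 16.7% lower, and at 1 mg/L 5.64% and 3.69%, so at each dose most targets were not called. Of the 64, 52 were called lower with ions in all 3 ion comparisons, which are the contrasts that the rule used.

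By group medians, 74 members (64.3%) ran downward from control through 1 mg/L to 10 mg/L, an order found in 24% of the 12634 targets at the control minimum. The reverse order, with 10 mg/L highest, was found in 9 members (7.83%) against 31.5%. In 42 members (36.5%) the medians of control and both doses lay within 1.5-fold of each other, against 71.3% of targets at the control minimum. The median of 25 members (21.7%) at 10 mg/L was at or below 0.5 times control, against 5.82%, and that of 11 (9.57%) at 1 mg/L, against 3.39%. These are descriptions of medians that entered the rule.

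Some members have identifiers close in number. Of the 115, 13 had another member within 5 identifier numbers, in 6 groups of which the largest held 3. Listing the neighbours within that distance of each member gave 1150 entries, where an identifier is listed once for each member near it. Of these entries 1.39% were members, while members made up 0.432% of all targets, each counted once. The files do not say whether identifier order follows genome order, and no sequence similarity was computed.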

How the data were processed

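RNA was sequenced from 20 pools of whole Daphnia magna, 5 in each of 4 groups taken from the titles. Estimated counts per target were deposited, per the file headers, not normalized, with 87.4% to 90.2% of values whole within 1e-06, and TPM values were deposited beside them, scaled by effective length, per the file headers. Which program counted reads, against which annotation and build, is not given in the sources used here.

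Members were chosen on CPM, the estimated count scaled to the library sum. The members and the tests were chosen with earlier results of these data known. Counts were rounded, then fitted in edgeR 4.0.16 under R 4.3.3 (filterByExpr, minimum count 10 and total 15, TMM scaling, 1 quasi-likelihood fit of all 20 libraries with group as the only term, two-sided, Benjamini-Hochberg over 16163 targets, threshold 0.05). Each SE is the absolute log2 fold change over the root of the F statistic. The fit was tested on simulated counts. Named members were the 2 with the largest smallest ratio, the 2 with the highest control median, and in each comparison among control and LCO the up to 2 higher and 2 lower with the smallest p. Lists of genes by product name were not run for want of names. Alternatives used DESeq2 1.42.0, limma 3.58.1 on log2(TPM + 1), other filters, scales and constants, the replicate number as a block, and each library left out. Library totals limit precision for counting error only. Figures were drawn with matplotlib 3.10.9.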

Additional observations from a re-analysis of the deposited data

Results flagged for a closer look

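In 48 groups of 5 values, 6 had a library whose gap to the nearest other library exceeded 0.71 of the range, where chance passes about 1 group in 20. Ion replicate 5 was the highest in 4 of them. The ratio was 0.714 for the summed CPM of the members, 0.840 for KZS12429, 0.909 for KZS04751 and 0.802 for KZS15150. The median log2 level of the members in the ion libraries, also among the 48 groups, did not pass. In the LCO 10 mg/L libraries neither the summed CPM nor the median log2 level of the members passed. The rate of 1 in 20 holds for independent, normally distributed values, while these groups share libraries and most hold unlogged CPM. LCO 10 mg/L replicate 5 was the highest for KZS21644 (0.829), and LCO 1 mg/L replicate 5 the lowest for KZS15806 (0.738). The part of these libraries in the results was not tested beyond leaving each out.

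The LCO doses differed in a test of the difference itself (edgeR's quasi-likelihood test, 10 mg/L against 1 mg/L) for 6 of 115 members (5.22%), near the 4.7% of all tested targets called lower. Among the named ones the log2 fold changes were -1.69 for KZS06375, -1.29 for KZR97721 and -0.61 for KZS15806.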

How the results depend on the processing

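The rule kept 66 to 173 targets with 1 library left out. It kept 97 on TPM and 83 on group means, each sharing 62 with the 115 members, and 99 on TMM-scaled CPM, sharing 96. With 1 library left out, members called lower with ions numbered 105 to 112 against control, 65 to 104 against LCO 10 mg/L and 98 to 109 against LCO 1 mg/L. Members called at 10 mg/L against control numbered 31 to 58 lower and 5 to 6 higher, at 1 mg/L 0 to 16 lower and 5 to 9 higher, and between the doses 3 to 9 lower and 0 higher (edgeR, 0 at an unadjusted p under 0.05 in each). Over all tested targets, lower calls in these fits made up 13.3% to 18.34%, 1.22% to 5.53% and 2.48% to 5.91%. Higher calls made up 10.62% to 14.69%, 3.62% to 6.73% and 0.55% to 2.27%. Members lower at 1 mg/L numbered 5 with no filter on low counts, 13 with only the groups compared, 16 in DESeq2, 4 in limma on log2(TPM + 1) and 16 without the 3 libraries nearer to another group. In the same order, 1.42%, 3.04%, 6.4%, 1.88% and 5.89% of all tested targets were lower. Members lower at 10 mg/L than at 1 mg/L numbered 13 with only the groups compared, 10 in DESeq2, 10 in limma and 13 without those 3 libraries. The shares of all were 7.11%, 7.37%, 6.05% and 7.93%. With LCO 10 mg/L replicate 5 and ion replicate 5 both left out, chosen after the data were seen, the counts were 65 lower at 10 mg/L, 22 lower at 1 mg/L and 20 lower between the doses, beside 18.67%, 5.95% and 6.32% of all tested targets. The share of chosen targets met in a left-out ion library moved to 71.6% in replicate 3 on group means and to 5.68% in replicate 5 on TPM. Fewer libraries or targets enter some of these fits, and otherwise the cause was not tested.

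Correlations of same-numbered deviations between groups ran from -0.47 to 0.57. The highest were those of LCO 10 mg/L with ions, at 0.57 for replicates 4 and 0.43 for replicates 5. Differently numbered libraries were not compared, so these values do not settle whether the titles' replicate numbers pair the libraries. With the replicate number as a block, 3 members were higher and 1 lower at 1 mg/L, 47 lower and 5 higher at 10 mg/L, and 5 lower between the doses. In the same order, that fit called 3.67%, 1.61%, 15.52%, 12.1% and 2.6% of all tested targets. Of 638 values of single named members under the alternatives, 0 changed sign and 21 lost and 3 gained a call. The lost calls were of KZS06375 and KZS14841 against ions at 10 mg/L and of KZS21644 and KZR97243 at 1 mg/L. Low counts in the ion libraries limit the ratios of rare members.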
